A study of Homo sapiens with 4 samples.

Results

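The BCL2 survival genes and the BH3-only genes form a set of 10 of the 64252 gene IDs in the deposited table. They were chosen by name for their roles, with earlier results of these data known, as were the lists of other genes below. The survival genes are BCL2, BCL2L1, BCL2L2 and MCL1, and the BH3-only genes are BCL2L11, BMF, BBC3, PMAIP1, BID and BAD. RNA came from J.gamma1, a clone of the human leukaemia line Jurkat, a model of T-cell acute lymphoblastic leukaemia (T-ALL), selected for loss of the signalling enzyme PLCG1. The 2 groups were cells given 10 µM FB23-2 for 48 h and control cells given the DMSO vehicle alone, at less than 0.1%, for the same 48 h, with 2 libraries from independent replicate samples in each. The compound FB23-2 inhibits FTO, which erases N6-methyladenosine marks on RNA. All cells share the background of that line. The study asked which genes the drug modulates.

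Proteins of the BCL2 family decide whether the outer mitochondrial membrane is opened by the effectors BAX and BAK, which releases cytochrome c and starts the caspase cascade. Survival proteins hold the effectors in check through a groove on their surface. BH3-only proteins carry a short helix, the BH3 domain, that fills this groove, and some of them also bind the effectors directly. In the thymus, BIM, the product of BCL2L11, is known for removing self-reactive thymocytes, and the dependence of a T-ALL on BCL2, BCL-XL or MCL1 is known to vary with its stage of arrest.

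The coding sequence of the BH3 core is shown because it is the feature that the BH3-only genes share and that the survival proteins also carry. The core was searched in translated GENCODE 29 transcripts as a leucine, any 3 residues, a glycine, alanine or serine, and an aspartate. Each line below gives 42 coding bases, 5′ to 3′ on the coding strand, and the capitals mark the codon of the leucine and the codons of the last pair of residues. A match was found in 9 of the 10 members, and none in BCL2L2 under this definition. BID had 2 matches, of which the one in its known BH3 domain is shown.
BCL2: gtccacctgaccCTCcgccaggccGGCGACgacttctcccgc
BCL2L1: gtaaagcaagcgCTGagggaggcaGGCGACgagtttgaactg
MCL1: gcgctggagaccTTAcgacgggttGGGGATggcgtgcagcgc
BCL2L11: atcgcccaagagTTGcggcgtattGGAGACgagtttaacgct
BMF: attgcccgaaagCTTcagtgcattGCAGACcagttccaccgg
BBC3: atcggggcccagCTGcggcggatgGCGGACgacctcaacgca
PMAIP1: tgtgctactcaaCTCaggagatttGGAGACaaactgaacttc
BID: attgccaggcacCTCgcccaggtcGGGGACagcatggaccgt
BAD: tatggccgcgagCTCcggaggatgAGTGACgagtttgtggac

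All 10 members passed the filter on low counts. Libraries held 33983246 to 37804516 counts with FB23-2 and 24615359 to 34897961 counts in control, and a total of 3 counts lies between 0.0785 and 0.125 CPM, the count scaled to the size of the library. Levels below are CPM after TMM scaling, and each log2 fold change, FB23-2 over control, has its standard error (SE) after the ± sign. Adjusted p values are from the quasi-likelihood test of edgeR, and a gene passed at under 0.05. The T-cell identity of the line was checked with 10 markers, all tested, whose summed level was 1370 to 1440 CPM with FB23-2 and 1940 to 1950 CPM in control, and of which 8 were lower and 0 higher. Myeloid markers summed to 1.33 to 2.08 CPM with FB23-2 and 1.45 to 1.99 CPM in control, and each of the 5 had counts in at least 1 library. B-cell markers summed to 46.1 to 47.8 CPM with FB23-2 and 42.1 to 48.4 CPM in control, nearly all of it CD79A, while PAX5 had 0 counts in 3 of 4 libraries. Natural killer markers summed to 6.39 to 6.75 CPM with FB23-2 and 4.03 to 4.53 CPM in control, and epithelial or fibroblast markers to 5.13 to 5.30 CPM with FB23-2 and 6.25 to 6.97 CPM in control. In the last list COL1A2 was lower (-4.54 ± 0.61, edgeR adjusted p = 0.000269). It had 7 and 0 counts in FB23-2 libraries, against 62 and 74 in control libraries. No myeloid, B-cell or natural killer marker passed. PLCG1 RNA was at 295 and 291 CPM in FB23-2 libraries and 265 CPM in each control library, so the loss that defines the line was not visible at the RNA level. The part of these marker differences in the results was not tested.

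Among the members, 3 BH3-only genes rose by the largest amounts, BBC3, BMF and PMAIP1, while the other 2 BH3-only genes past the threshold, BID and BAD, fell. Of the survival genes, BCL2L1 and BCL2L2 fell and BCL2 rose by a small amount. In all, 4 members were higher and 4 lower. Over all 18817 tested genes, 42.1% passed the threshold, 21.8% higher and 20.3% lower. The median log2 fold change was 0.51 over the 6 BH3-only genes, -0.14 over the 4 survival genes and 0.16 over all 10, beside a median absolute log2 fold change of 0.34 over all tested genes and a median of 0.0. In a bulk library a change in RNA per cell and a change in the share of cells that express a gene cannot be told apart.

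**Figure D1:**
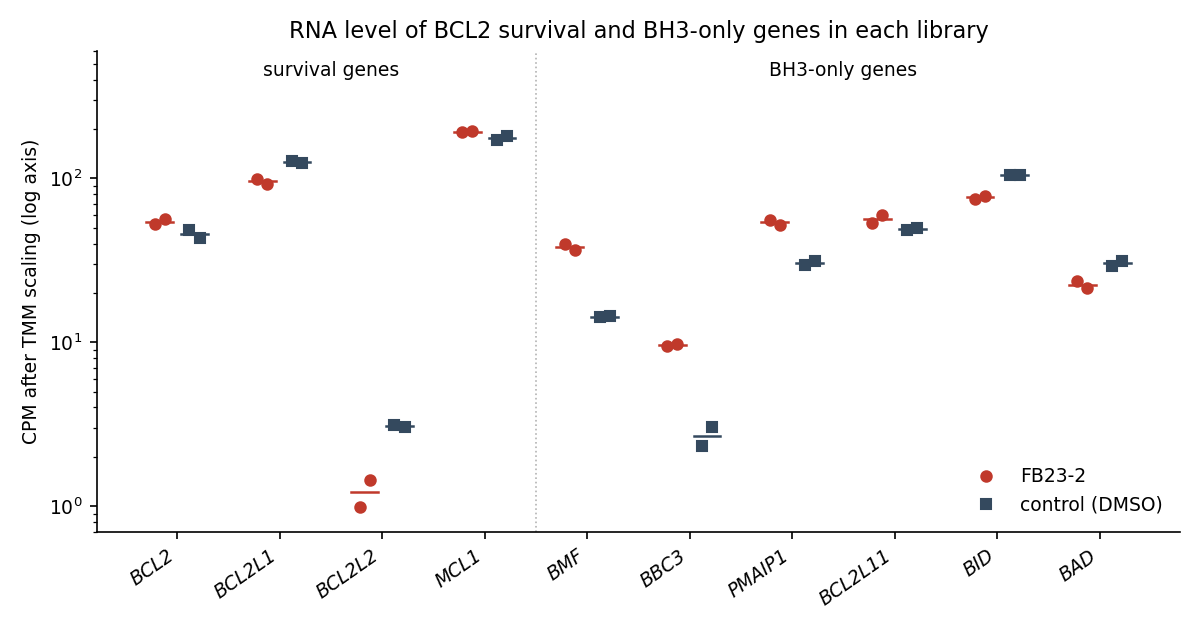
RNA level of each member in each library, in CPM after TMM scaling on a log axis, with circles for FB23-2, squares for control and a short line at the mean of the 2 libraries. BMF, BBC3 and PMAIP1 have both FB23-2 libraries clearly above both control libraries, and BCL2L1, BCL2L2, BID and BAD have them below.

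BMF encodes a BH3-only protein that is known to be held at the cytoskeleton by a dynein light chain. It had 39.8 and 36.7 CPM in FB23-2 libraries, against 14.2 and 14.5 CPM in control libraries. Both treated libraries were more than 2-fold above either control library, and the replicates of a group lay close together. BMF rose 2.66-fold, by 1.41 ± 0.09 on the log2 scale (edgeR adjusted p = 3.99e-06), and its fold change ranked 428 from the top of the tested genes. BMF lies on chromosome 15, 40087890 to 40108892 of hg38, minus strand. An antisense gene, BMF-AS1, shares 8.5% of its exon bases but held 1 count in all 4 libraries together.

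BBC3 encodes PUMA, a BH3-only protein that binds all the survival proteins and is a known target of FOXO factors and CHOP. It had 9.55 and 9.80 CPM in FB23-2 libraries, from 365 and 340 counts, against 2.32 and 3.05 CPM in control libraries, from 56 and 105 counts. It had the largest fold change of the set, with treated libraries that agreed closely and control libraries that differed more. BBC3 rose 3.52-fold, by 1.81 ± 0.18 on the log2 scale (edgeR adjusted p = 5.66e-05), with a 95% interval of 1.40 to 2.23 and rank 215 from the top. The gene lies on chromosome 19, 47220822 to 47232766, minus strand.

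PMAIP1 encodes NOXA, a small BH3-only protein known for binding MCL1 and, with it, being degraded. It had 55.5 and 52.1 CPM in FB23-2 libraries, against 29.7 and 31.4 CPM in control libraries, and the groups were well apart. PMAIP1 rose 1.76-fold, by 0.81 ± 0.07 on the log2 scale (edgeR adjusted p = 2.56e-05). Of these 3 genes, PMAIP1 was the most abundant per length in both groups. It lies on chromosome 18, 59899948 to 59904306, plus strand.

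BCL2L11, which encodes BIM, had 53.1 and 59.9 CPM in FB23-2 libraries, against 48.1 and 50 CPM in control libraries. The groups did not overlap, but the FB23-2 libraries differed by more than the gap between the groups. The log2 fold change of 0.20 ± 0.07, with a 95% interval of 0.03 to 0.37, did not pass (edgeR adjusted p = 0.0553). It passed when libraries were scaled by their size alone (0.0268), blocked by replicate number (0.0262) or tested with the older edgeR method (0.046). With FB23-2 replicate 1 left out the adjusted p was 0.0278, and with FB23-2 replicate 2 left out it was 0.283 (all alternatives 0.0262 to 0.283). The long non-coding gene MIR4435-2HG shares 10.9% of the BCL2L11 exon bases on the opposite strand, and had 8.24 and 6.83 CPM in FB23-2 libraries and 10.7 and 8.19 CPM in control libraries. BCL2L11 lies on chromosome 2, 111119378 to 111168447.

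BID, whose protein is cut by caspase 8 and carries the death receptor signal to mitochondria, had 75 and 78.2 CPM in FB23-2 libraries, against 105 CPM in each control library. BID changed by -0.46 ± 0.05 on the log2 scale (edgeR adjusted p = 9.71e-05). BAD, whose protein is held by 14-3-3 proteins while phosphorylated, had 23.7 and 21.3 CPM in FB23-2 libraries, against 29.1 and 31.4 CPM in control libraries. Every treated library of both genes lay below every control library. BAD changed by -0.43 ± 0.09 on the log2 scale (edgeR adjusted p = 0.00409). With control replicate 2 left out BAD no longer passed (edgeR adjusted p = 0.0565; all alternatives 0.00245 to 0.0565). GPR137 on the opposite strand shares 23.7% of the BAD exon bases. It had 22.8 and 23.1 CPM in FB23-2 libraries and 21.9 and 25.2 CPM in control libraries, a log2 fold change of -0.05, and without a stated strand setting its reads and those of BAD cannot be told apart there. BID lies on chromosome 22, 17734138 to 17774770, and BAD on chromosome 11, 64269830 to 64284704, both on the minus strand.

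Of the survival genes, MCL1, which encodes a short-lived survival protein, was the most abundant member per length, and had 191 and 193 CPM in FB23-2 libraries, against 172 and 182 CPM in control libraries. Its log2 fold change of 0.11 ± 0.04, with a 95% interval of 0.01 to 0.21, did not pass (edgeR adjusted p = 0.0661). It did pass when libraries were scaled by their size alone (0.0179) or blocked by replicate number (0.0442), within 0.0179 to 0.481 over all alternatives. The estimate was 0.16 with library sizes alone and also without control replicate 2. MCL1 lies on chromosome 1, 150574551 to 150579738.

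BCL2L1, which encodes BCL-XL and, from another splice site, the death-promoting BCL-XS, had 99.2 and 92.2 CPM in FB23-2 libraries, against 128 and 124 CPM in control libraries. The treated libraries lay below both control libraries, with a log2 fold change of -0.39 ± 0.05 (edgeR adjusted p = 0.000313). The counts are per gene and do not separate the splice forms. The antisense gene ABALON covers 43.0% of the BCL2L1 exon bases, and its ID is not among those of the deposited table. Without a stated strand setting, its reads and those of BCL2L1 cannot be told apart there. BCL2L1 lies on chromosome 20, 31664452 to 31723989.

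BCL2, the founding survival gene of the family, had 52.6 and 56.4 CPM in FB23-2 libraries, against 48.3 and 43.0 CPM in control libraries. The groups did not overlap, by a gap smaller than the difference between the control libraries. BCL2 rose by 0.26 ± 0.08 on the log2 scale (edgeR adjusted p = 0.0206). BCL2 no longer passed when FB23-2 replicate 2 was left out (edgeR adjusted p = 0.118), when control replicate 2 was left out (0.19) or when low counts were not filtered (0.051), within 0.00917 to 0.19 over all alternatives. BCL2 lies on chromosome 18, 63123346 to 63320128.

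BCL2L2, which encodes BCL-W, was the scarcest member per length by mean level, but overlapped with BBC3 in control libraries. It had 38 and 50 counts in FB23-2 libraries (0.995 and 1.44 CPM), against 75 and 104 counts in control libraries (3.11 and 3.02 CPM). Both treated libraries were at less than 50% of the control level, as the log2 fold change of -1.34 ± 0.29 shows (edgeR adjusted p = 0.00441), with a 95% interval of -1.98 to -0.70. BCL2L2 shares 19.4% of its exon bases with the read-through gene BCL2L2-PABPN1 on the same strand, which held 2 counts in all, and 4.9% with PPP1R3E on the opposite strand, which was lower too (-0.35). How reads were divided among these genes is not given in the sources used here, so this value is uncertain. BCL2L2 lies on chromosome 14, 23298790 to 23311759.

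**Figure D2:**
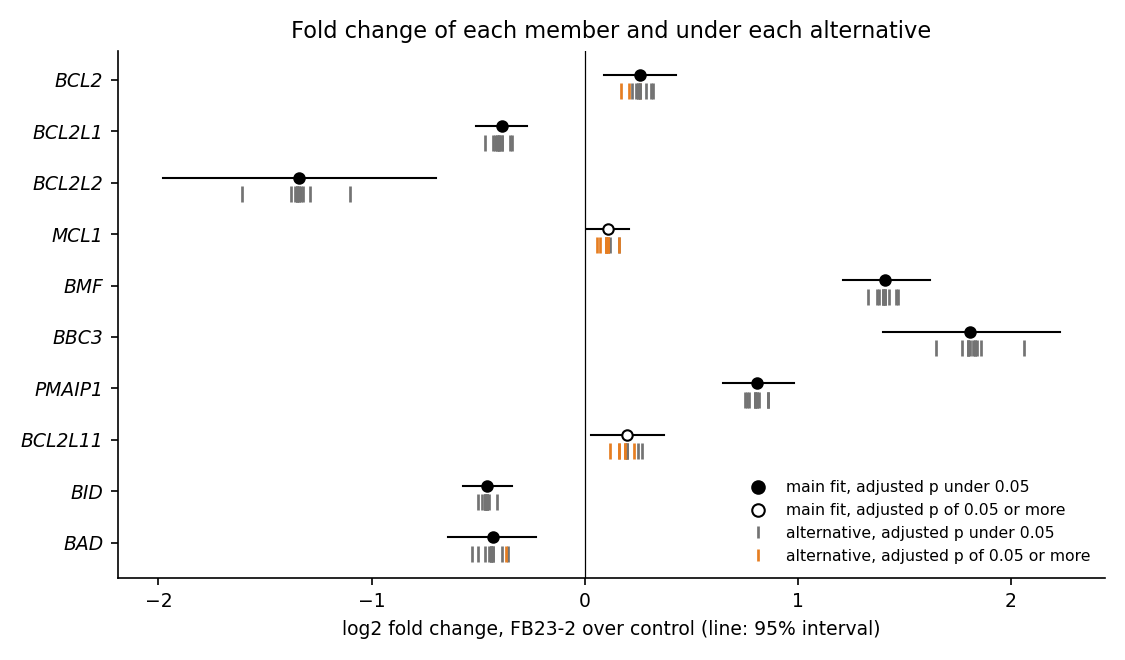
Log2 fold change of each member, FB23-2 over control, with its 95% interval as a line and filled circles for an adjusted p under 0.05. Ticks below each circle give the value under the 12 alternatives, grey where the adjusted p was under 0.05 and orange where it was not. All ticks of a member lie on the same side of 0, and orange ticks occur for BCL2, MCL1, BCL2L11 and BAD.

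Of the 10 members, BBC3 and BMF were at least 2-fold higher, as were 3.03% of all tested genes, and BCL2L2 was at least 2-fold lower, as were 4.46%. The other members that passed changed by less than 2-fold.

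**Figure D3:**
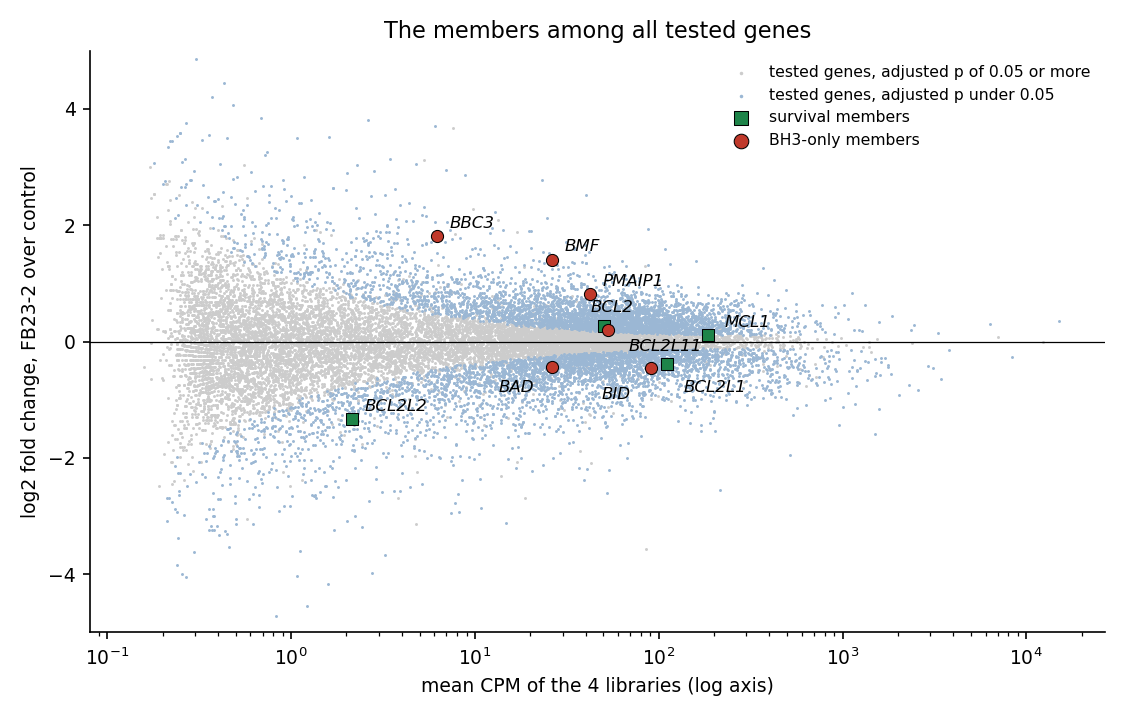
Log2 fold change, FB23-2 over control, against mean CPM of the 4 libraries on a log axis, for all 18817 tested genes (27 lie beyond the limits of 5 on the log2 axis). Squares mark survival members and circles BH3-only members. BBC3 and BMF stand above the bulk of genes of like abundance, and MCL1 and BCL2L11 lie near 0.

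Levels of different genes were compared per length, as TPM, the count per base of the merged exons of each gene scaled to the same sum in every library. Where the merged exons of a gene are longer than the transcripts in use, its level is understated, and BCL2 had 11765 merged exon bases against 5447 in BMF, so orders between genes hold on this scale only. In FB23-2 libraries the order was MCL1 at 155 ± 3.28 TPM, BCL2L1 at 102 ± 3.73, PMAIP1 at 85.1 ± 2.43, BID at 60.9 ± 2.70, BAD at 46.5 ± 2.74, BCL2L11 at 30.0 ± 3.02, BMF at 24.8 ± 1.04, BCL2 at 16.4 ± 1.06, BBC3 at 10.8 ± 0.360 and BCL2L2 at 1.03 ± 0.282 (SD, n = 2). In control libraries it was MCL1 at 135 ± 8.52 TPM, BCL2L1 at 126 ± 0.174, BID at 78.7 ± 1.54, BAD at 59.1 ± 4.60, PMAIP1 at 45.5 ± 2.96, BCL2L11 at 24.5 ± 1.25, BCL2 at 12.9 ± 0.743, BMF at 8.79 ± 0.339, BBC3 at 2.82 ± 0.606 and BCL2L2 at 2.44 ± 0.00793 (SD, n = 2). Neighbours in these orders did not overlap between libraries, except BBC3 and BCL2L2 in control. PMAIP1 thus stood above BID and BAD in FB23-2 libraries and below both in control libraries.

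Within each library, the summed level of the 6 BH3-only genes was 0.943 and 0.938 times that of the 4 survival genes with FB23-2, against 0.780 and 0.806 times in control. The BH3-only sum was 258 TPM in each FB23-2 library, against 212 and 228 TPM in control libraries. The survival sum was 274 and 275 TPM with FB23-2, against 271 and 282 TPM in control. TPM was not TMM scaled, and each member stood somewhat higher with FB23-2, relative to control, in TPM than in the fit. Part of the difference between the BH3-only sums is therefore a matter of scaling. Ratios and shares within a library do not depend on it. PMAIP1 alone had means of 85.1 TPM with FB23-2 and 45.5 TPM in control. BMF and BBC3 were also higher with FB23-2, and BID and BAD were lower. BCL2L11, which did not pass in the fit, had means of 30.0 TPM with FB23-2 and 24.5 TPM in control. BMF, BBC3 and PMAIP1 made up 47.6% and 45.9% of the BH3-only sum with FB23-2, against 25.7% and 26.3% in control. BID and BAD made up 41.6% in each FB23-2 library, against 63.1% and 62.5% in control, while BCL2L11 held 10.8% and 12.5% with FB23-2 and 11.2% in each control library. Within the survival sum, MCL1 held 55.8% and 57.2% with FB23-2, against 47.6% and 49.9% in control, and BCL2L1 held 38.2% and 36.1% with FB23-2, against 46.6% and 44.8% in control. These sums describe RNA and were given no test. Since BMF, BBC3 and PMAIP1 were put together, and BID with BAD, after the direction of each gene was known, the direction of those shares was fixed by that choice.

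**Figure D4:**
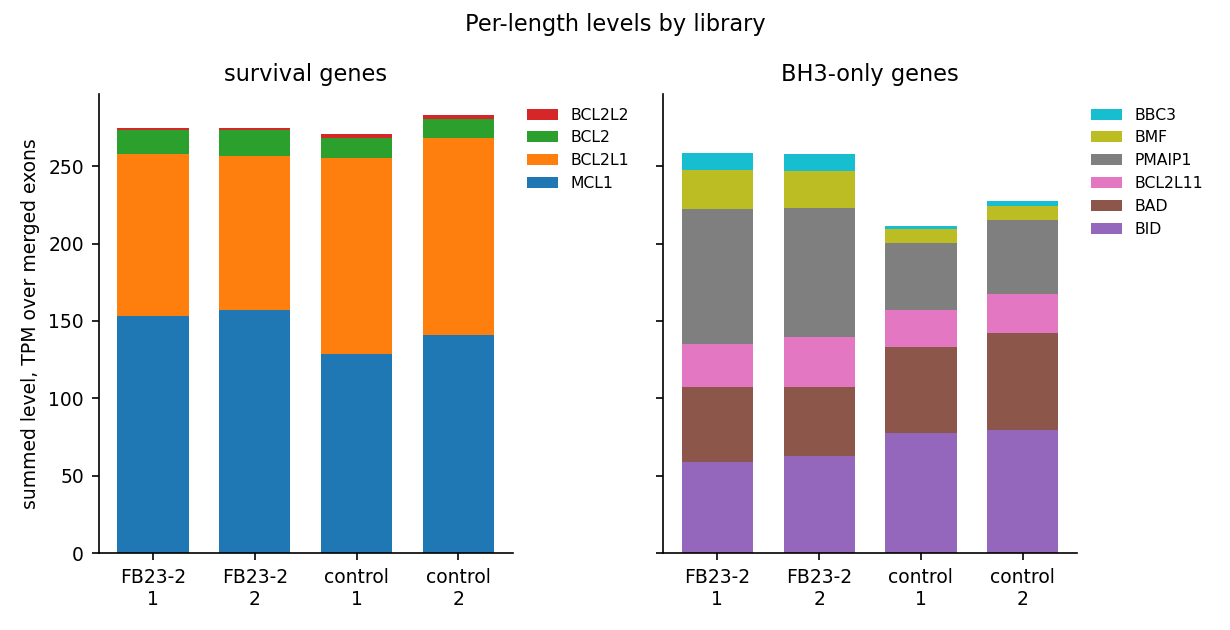
Summed level per length, in TPM over merged exons, of the survival genes (left) and the BH3-only genes (right) in each library, with 1 colour per gene. PMAIP1, BMF and BBC3 fill a larger part of the BH3-only bars in the 2 FB23-2 libraries than in the 2 control libraries, where BID and BAD fill the larger part.

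Promoter sequence was examined for every member with a promoter window. RefSeq promoter windows of build GRCh38.p14, from 250 bases before to 50 bases after a start, were matched by symbol for 8 of the 10 members, with 15 windows in all, and not for BCL2L2 and MCL1. Letters searched on both strands were TGTTTAC for FOXO factors, TGATGNAAT for CHOP with ATF4, and CACGTG, the E-box bound by MYC. The FOXO letters were in 1 of the 15 windows of members and in 3.42% of all 35116 windows. The CHOP letters were in 0 of 15 and in 0.991% of all windows, and the E-box in 3 of 15 and in 7.26%. A FOXO match lay 217 bases before the BCL2L11 start, and an E-box lay 227 bases before the BBC3 start and 101 and 42 bases before a pair of neighbouring BID starts, where it is the same E-box seen from both. The windows of BMF and PMAIP1 held none of the searched letters, which says only that these letters were not in these windows. The 250 bases before the start are given below, 5′ to 3′ on the strand of the gene. They are given for BMF, BBC3 and PMAIP1 and for the members with a match. They span chr15:40108880-40109129 (BMF, minus strand, the upstream of 2 starts), chr19:47232668-47232917 (BBC3, minus), chr18:59899746-59899995 (PMAIP1, plus), chr2:111120664-111120913 (BCL2L11, plus) and chr22:17773984-17774233 (BID, minus, the start at 101 bases). Capitals mark a match on either strand, and lines with no capitals hold none.
BMF: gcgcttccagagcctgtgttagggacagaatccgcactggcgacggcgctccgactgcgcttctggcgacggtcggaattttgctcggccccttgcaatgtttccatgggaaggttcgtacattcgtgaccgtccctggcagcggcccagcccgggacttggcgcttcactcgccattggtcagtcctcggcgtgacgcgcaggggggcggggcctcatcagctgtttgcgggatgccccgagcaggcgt
BBC3: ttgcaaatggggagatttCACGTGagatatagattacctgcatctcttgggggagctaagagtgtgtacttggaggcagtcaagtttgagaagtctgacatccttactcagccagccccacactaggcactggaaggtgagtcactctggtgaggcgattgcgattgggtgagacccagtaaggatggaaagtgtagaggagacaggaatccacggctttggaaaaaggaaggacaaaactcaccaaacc
PMAIP1: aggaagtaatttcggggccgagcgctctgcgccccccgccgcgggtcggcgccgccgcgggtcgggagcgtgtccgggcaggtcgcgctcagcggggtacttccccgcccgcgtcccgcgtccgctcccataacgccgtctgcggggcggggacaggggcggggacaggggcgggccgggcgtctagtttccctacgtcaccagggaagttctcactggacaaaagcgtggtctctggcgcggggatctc
BCL2L11: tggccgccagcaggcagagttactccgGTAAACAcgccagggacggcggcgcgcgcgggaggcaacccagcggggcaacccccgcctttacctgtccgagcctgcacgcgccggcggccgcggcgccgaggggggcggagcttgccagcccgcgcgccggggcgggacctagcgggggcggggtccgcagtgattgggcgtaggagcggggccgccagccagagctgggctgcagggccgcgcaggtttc
BID: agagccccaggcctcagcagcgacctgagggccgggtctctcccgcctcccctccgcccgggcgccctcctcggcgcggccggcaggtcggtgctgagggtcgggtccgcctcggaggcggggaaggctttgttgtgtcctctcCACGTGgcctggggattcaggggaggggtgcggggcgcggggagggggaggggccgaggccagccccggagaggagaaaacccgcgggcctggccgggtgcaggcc

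Of 11 other relatives in the BCL2 family, 8 were tested, 1 was higher and 0 lower, beside 21.8% and 20.3% of all tested genes. Their median log2 fold change was 0.04, over genes that went both ways. The effector genes BAX, at 30.7 ± 0.0583 CPM in FB23-2 libraries and 28.3 ± 0.102 CPM in control libraries (SD, n = 2), and BAK1, at 38 ± 1.26 CPM in FB23-2 libraries and 35 ± 1.15 CPM in control libraries, did not pass. Their log2 fold changes were 0.11 ± 0.08 (edgeR adjusted p = 0.267) and 0.12 ± 0.07 (adjusted p = 0.231), with 95% intervals of -0.06 to 0.29 and -0.05 to 0.28. BNIP3L, a mitophagy receptor with a BH3-like stretch, rose (0.29 ± 0.04, edgeR adjusted p = 0.000622). BIK, a BH3-only gene of the endoplasmic reticulum, had a log2 fold change of -0.38 ± 0.16 that did not pass (edgeR adjusted p = 0.0774), except without FB23-2 replicate 1 (0.0432, range 0.0432 to 0.433). HRK (-1.0 ± 0.49), BOK (-0.55 ± 0.46), BNIP3 (0.02 ± 0.05) and BECN1 (0.06 ± 0.05) did not pass either, and HRK and BOK held 13 to 31 and 14 to 31 counts per library. The survival relatives BCL2A1, with 0 counts in each FB23-2 library and 2 in each control library, and BCL2L10, with 3 and 5 counts with FB23-2 and 3 and 6 in control, were too low to test.

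Among caspases, their activators and their inhibitors, 7 of 11 genes were higher and 2 lower, beside 21.8% higher and 20.3% lower over all tested genes, with a median log2 fold change of 0.33. Genes that carry out death and genes that restrain it were both among those that rose. CASP8, the initiator that cuts BID, had 91.3 ± 2.47 CPM with FB23-2 and 61.6 ± 1.01 CPM in control (SD, n = 2; 0.57 ± 0.05), and APAF1, the scaffold of the apoptosome (0.38 ± 0.08), was also higher. So were the caspase inhibitors XIAP (0.40 ± 0.05) and BIRC2 (0.55 ± 0.06). CYCS, cytochrome c, fell (-0.47 ± 0.06), as did HTRA2, a mitochondrial protease that counters XIAP (-0.36 ± 0.07). CASP9, BIRC3 and BIRC5 passed with log2 fold changes of 0.33, 0.33 and 0.15. Each lost its call without at least 1 library, with highest adjusted p values over the alternatives of 0.196, 0.134 and 0.332. BIRC5 lost it under 8 of 12 alternatives, among them upper quartile scaling (0.112), RLE scaling (0.0669) and DESeq2 (0.0819), and CASP9 also lost it with DESeq2 (0.0777). Without control replicate 2, 4 genes of the list were called higher. HTRA2 shares 20.8% and 16.1% of its exon bases with LOXL3 and AUP1 on the opposite strand.

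Of 20 genes whose products bind or turn over the members, 5 were higher and 5 lower, shares near the 21.8% and 20.3% of all tested genes, with a median of -0.07. With upper quartile scaling 2 were higher and 8 lower. DYNLL1, a dynein light chain, fell to 69.3 ± 5.13 CPM with FB23-2, against 121 ± 10.0 CPM in control (SD, n = 2; -0.80 ± 0.07). Its paralog DYNLL2, the form known to bind BMF, stood at 287 ± 17.9 CPM in FB23-2 libraries and 265 ± 10.3 CPM in control libraries (SD, n = 2), and did not pass (0.12 ± 0.05, edgeR adjusted p = 0.103), except without FB23-2 replicate 2 (0.0273) and with library size scaling (0.0261), in a range of 0.0261 to 0.673. BAG1, a co-chaperone named for binding BCL2, fell (-1.10 ± 0.08), as did the 14-3-3 gene YWHAG (-0.40 ± 0.04) and HUWE1, a ubiquitin ligase for MCL1 (-0.20 ± 0.04). PPP3CA, a calcineurin subunit that dephosphorylates BAD, rose (0.69 ± 0.08). FBXW7 (lower), and PIM1, YWHAB, YWHAZ and USP9X (higher), each lost the call without at least 1 library (all but PIM1 also under other settings), with highest adjusted p values over the alternatives of 0.0978, 0.097, 0.248, 0.177 and 0.194. Without control replicate 1 or without control replicate 2, 1 gene was called higher, and without FB23-2 replicate 1, 3 were.

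Of 16 genes listed as regulators of the members' transcription, 8 were higher and 4 lower, with a median of 0.16. Over all tested genes 21.8% were higher and 20.3% lower. DDIT3, which encodes CHOP, a known inducer of BBC3 and BCL2L11, had 40.4 ± 0.119 CPM with FB23-2 and 5.85 ± 0.111 CPM in control (SD, n = 2; 2.78 ± 0.10). TRIB3 (1.94 ± 0.07), ATF3 (1.29 ± 0.09) and TSC22D3, which encodes the glucocorticoid-induced protein GILZ (1.76 ± 0.16), were higher, while ATF4 RNA was lower (-0.39 ± 0.04). DDIT3 shares 27.2% of its exon bases with MARS1 and 4.4% with MBD6, both on the opposite strand. It shares 8.0% with a protein-coding gene without a symbol on the same strand. Without a stated strand setting, reads of MARS1 and MBD6 and those of DDIT3 cannot be told apart there. FOXO1, a forkhead factor known to induce BCL2L11 and BBC3, had 17.9 ± 0.268 CPM with FB23-2 and 9.36 ± 0.5 CPM in control (SD, n = 2; 0.95 ± 0.11). FOXO3 passed narrowly (0.17 ± 0.06, edgeR adjusted p = 0.0479) and lost its call under 9 of 12 alternatives, all 4 that leave out a library among them, in a range of 0.0192 to 0.304. MYC (-2.55 ± 0.06), E2F1 (-0.26 ± 0.06) and STAT5A (-1.35 ± 0.21) fell, and STAT3 (0.46 ± 0.04) and NFKB1 (0.21 ± 0.06) rose. E2F1 no longer passed with control replicate 2 left out (edgeR adjusted p = 0.0829; all alternatives 0.0029 to 0.0829), and neither did NFKB1 without FB23-2 replicate 1 (0.0896), FB23-2 replicate 2 (0.0661) and control replicate 2 (0.155, range 0.00631 to 0.155).

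**Figure D5:**
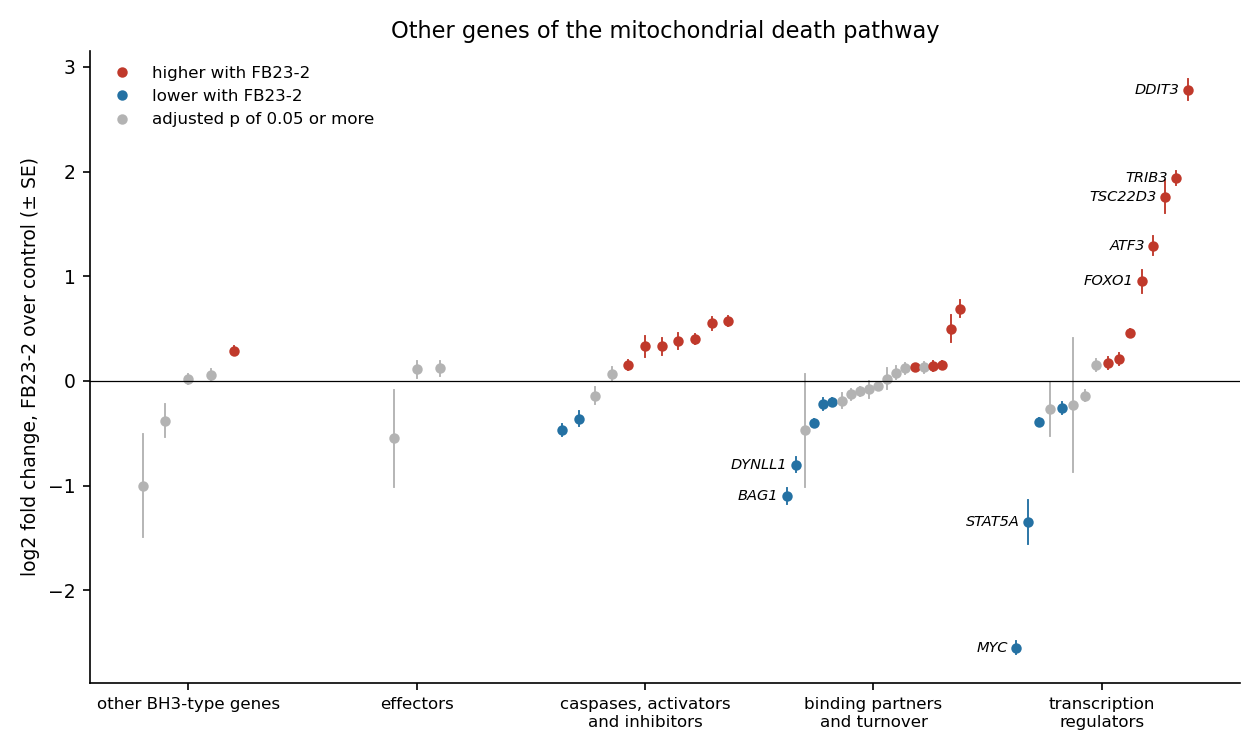
Log2 fold change, FB23-2 over control, with SE bars, of the tested genes of the wider death pathway, in columns by role and ordered by value within a column. Red points passed higher, blue points passed lower and grey points did not pass. The effectors are grey and near 0 apart from the scarce BOK, and DDIT3 and MYC are the extremes of the regulators. Most genes in the column of caspases, their activators and their inhibitors are above 0.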

How the data were processed

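RNA was sequenced from 4 libraries of J.gamma1 cells, 2 per group. The authors deposited 1 table of whole-number counts per Ensembl gene ID with no normalization. Per the submitters' processing notes, HISAT2 2.2.0, StringTie and hg38 were used. How counts were made, with which annotation and strand setting, is not given in the sources used here, and a gene's reads may include those of an overlapping antisense gene. Symbols came from a list of gene names, and coordinates and exon lengths from GENCODE release 29 on the same build. The 10 members and the lists of other genes were chosen with earlier results of these data known, by role, and every gene of those lists could be named. Some genes of these pathways are not reported here.

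The filterByExpr function of edgeR 4.0.16, with a minimum count of 10, left 18817 of 64252 IDs. Libraries were scaled by TMM, and groups compared with the quasi-likelihood test (glmQLFit, robust, version 4 method) in R 4.3.3, with Benjamini-Hochberg adjustment over all tested genes. The SE is the absolute log2 fold change over the square root of F. The common biological coefficient of variation was 10.5%. Limits of 3 counts cover counting error only. The test was checked on simulated data. Alternatives were upper quartile, library size and RLE scaling, no filter, a minimum of 1 CPM in 2 libraries, DESeq2 1.42.0, a replicate block and leaving out each library. The older edgeR method was added after the data were seen.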

Additional observations from a re-analysis of the deposited data

How the results depend on the processing

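Under the 12 alternatives every member kept the direction of its log2 fold change, and BMF, BBC3, PMAIP1, BID, BCL2L1 and BCL2L2 passed in all. BCL2 was 0.26 with no filter and did not pass there (edgeR adjusted p = 0.051). MCL1 passed with scaling by library size (0.16), as it did with a replicate block (0.12). BCL2L11 passed with library size scaling (0.25), with a replicate block (0.20) and with the older edgeR method (0.20), the alternative chosen after seeing the data. The cause was not tested. With any 1 library left out, where an arm of 1 library is assumed to vary like the other group, log2 fold changes ran from 0.17 to 0.32 for BCL2, from 0.12 to 0.27 for BCL2L11 and from -0.53 to -0.36 for BAD.

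Of the survival members, 2 were called higher with scaling by library size, 2 with a replicate block, 0 with no filter, and 0 to 1 with a library left out, and 1 to 2 BH3-only members were called lower with a library left out. Of the binding partners, 2 were called higher and 8 lower with upper quartile scaling, 3 higher with no filter, 8 lower at a minimum of 1 CPM, and 1 to 4 higher with a library left out. With a library left out, 4 to 6 caspase genes were called higher and 0 to 1 other relatives lower.

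The median of all tested genes shifted by -0.04 with upper quartile scaling and by 0.05 with library size scaling, which move every gene alike. List medians moved by more than 1 SD of their values over the 4 pairs of an FB23-2 and a control library with upper quartile scaling (survival members -0.18, other relatives 0.00, partners -0.11, regulators 0.12), with library size scaling (survival members -0.09, BH3-only members 0.55, other relatives 0.08, partners -0.02, regulators 0.21), with no filter (other relatives -0.39) and at a minimum of 1 CPM (other relatives 0.07). The fit with no filter adds BCL2A1, BCL2L10 and BCL2L14 to the other relatives, and the minimum of 1 CPM drops HRK and BOK. Those medians of other relatives therefore cover different genes. With a library left out, list medians ran from -0.18 to -0.11 for survival members and 0.46 to 0.55 for BH3-only members. They ran from 0.02 to 0.04 for other relatives and 0.22 to 0.35 for caspases with their activators and inhibitors. For partners they ran from -0.06 to -0.02, and for regulators from 0.14 to 0.19. The sign of 2 genes that did not pass turned, for BNIP3 (0.02) with upper quartile scaling (-0.02, within that shift), without FB23-2 replicate 2 (-0.04) and without control replicate 1 (0.00; -0.04 to 0.05 with any library left out), and for BECN1 without FB23-2 replicate 1 (-0.01; -0.01 to 0.11 with any library left out). Of the 42 other genes recomputed singly, 11 lost a call under at least 1 alternative. Among those recomputed, BIK and DYNLL2 gained a call under at least 1 alternative. Most genes of the lists that did not pass were not recomputed singly, so calls gained are known only in part.

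Replicate numbers are not stated to pair the libraries. Same-numbered libraries deviated together (correlation of 0.245 over 11851 genes), and the block gave 8268 called genes in place of 7917. With 2 libraries per group the sign of this correlation follows from the numbering, so it cannot show whether the numbers pair the libraries. BCL2L2, with 38 to 104 counts, and BBC3 are the members whose depth limits precision most.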
